A study of Mus musculus with 6 samples.

Results

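A set of 9 genes of the naive pluripotency network was examined in P19 cells for 2 marks on lysine 9 of histone H3, crotonylation (H3K9cr) and acetylation (H3K9ac). The members, taken by name, were Klf2, Klf4, Klf5, Esrrb, Tfcp2l1, Tbx3, Prdm14, Zfp42 and Fbxo15, 9 of 21887 protein-coding genes in the RefSeq annotation of GRCm38.p6. The peaks of each were those overlapping the gene record or the 20 kb on either side of it, called its locus here. P19 is a mouse embryonal carcinoma line, and both groups were these cells in medium with fetal bovine serum, with no genetic change or treatment named. The 2 H3K9cr and 2 H3K9ac libraries were biological replicates made by native chromatin immunoprecipitation, which uses no crosslinking, each mark with 1 antibody. The 2 input libraries were not analysed here. What is due to the antibody and what to the mark cannot be told apart, nor, in bulk samples, fewer marked cells and less mark per cell. The limma p-values below set a difference between marks against the spread between 2 replicates of each mark, moderated over all loci or regions. The permutation p-value compares totals under all assignments of the libraries to marks.

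Naive pluripotency is the state of the inner cell mass of the mouse blastocyst and of embryonic stem cells kept with leukaemia inhibitory factor or in ground-state medium. It is held by a network of transcription factors around Oct4, Sox2 and Nanog that is turned down as the epiblast matures after implantation. Acetylation and crotonylation of histone H3 lie mainly at active promoters and enhancers, and are bound by reader domains, among them bromodomains and YEATS domains.

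The lists held 28360 and 28345 H3K9cr peaks and 26096 and 27474 H3K9ac peaks, and read depth is not given in the sources used here. Peaks were called per library, and where a list shows no peak, the mark was not shown to be absent. Of 7 markers of undifferentiated cells, such as Pou5f1 and Lin28a, 7 had a peak within 1 kb of a gene end in every library. So did 3 of 4 fibroblast, 2 of 5 extraembryonic endoderm, 2 of 4 trophoblast, 0 of 4 blood, 1 of 2 liver and 3 of 3 neuron markers. The share of all protein-coding genes was 61.5%. A peak at a gene end was thus not limited to genes of undifferentiated cells, and the part of other cells in this was not tested.

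The 9 loci fell into 4 layouts. Klf2, Klf4, Klf5, Tfcp2l1 and Tbx3 carried both marks at a gene end in all 4 libraries. Esrrb and Fbxo15 carried both marks inside the gene, at neither end. Prdm14 had weak peaks around its upper-coordinate end that reached the 1 kb window in 2 of 4 libraries. Zfp42 had 1 weak peak in 1 library. An end peak in all 4 libraries was thus found at 5 of 9 members (55.6%), against 61.5% of all protein-coding genes, and none in any library at 2 of 9, against 35.9%. A body peak, which overlaps the gene but no end window, was listed in all 4 libraries at 3 members (Esrrb, Tbx3 and Fbxo15), against 16.4% of genes. A distal peak was listed in all 4 at 3 (Klf4, Tbx3 and Prdm14), against 47.4%. Whether these shares differ from those of all genes was not tested. An end peak of one mark alone, in both its libraries and neither of the other mark, was found at 0 of 9 members, against 0.265% of genes (0.215% with H3K9cr alone and 0.0503% with H3K9ac alone). When at least 50% of a peak had to lie in the end window, 3 members were left with an end peak in all libraries. Klf4 and Tbx3 dropped out. The Klf4 peaks of 5331 to 5504 bp were too long for 50% of them to fit 1 kb on each side of an end. So were the Tbx3 end peaks of 4143 and 4132 bp in the first replicates. The share of all genes under this rule is not given here.

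**Figure D1:**
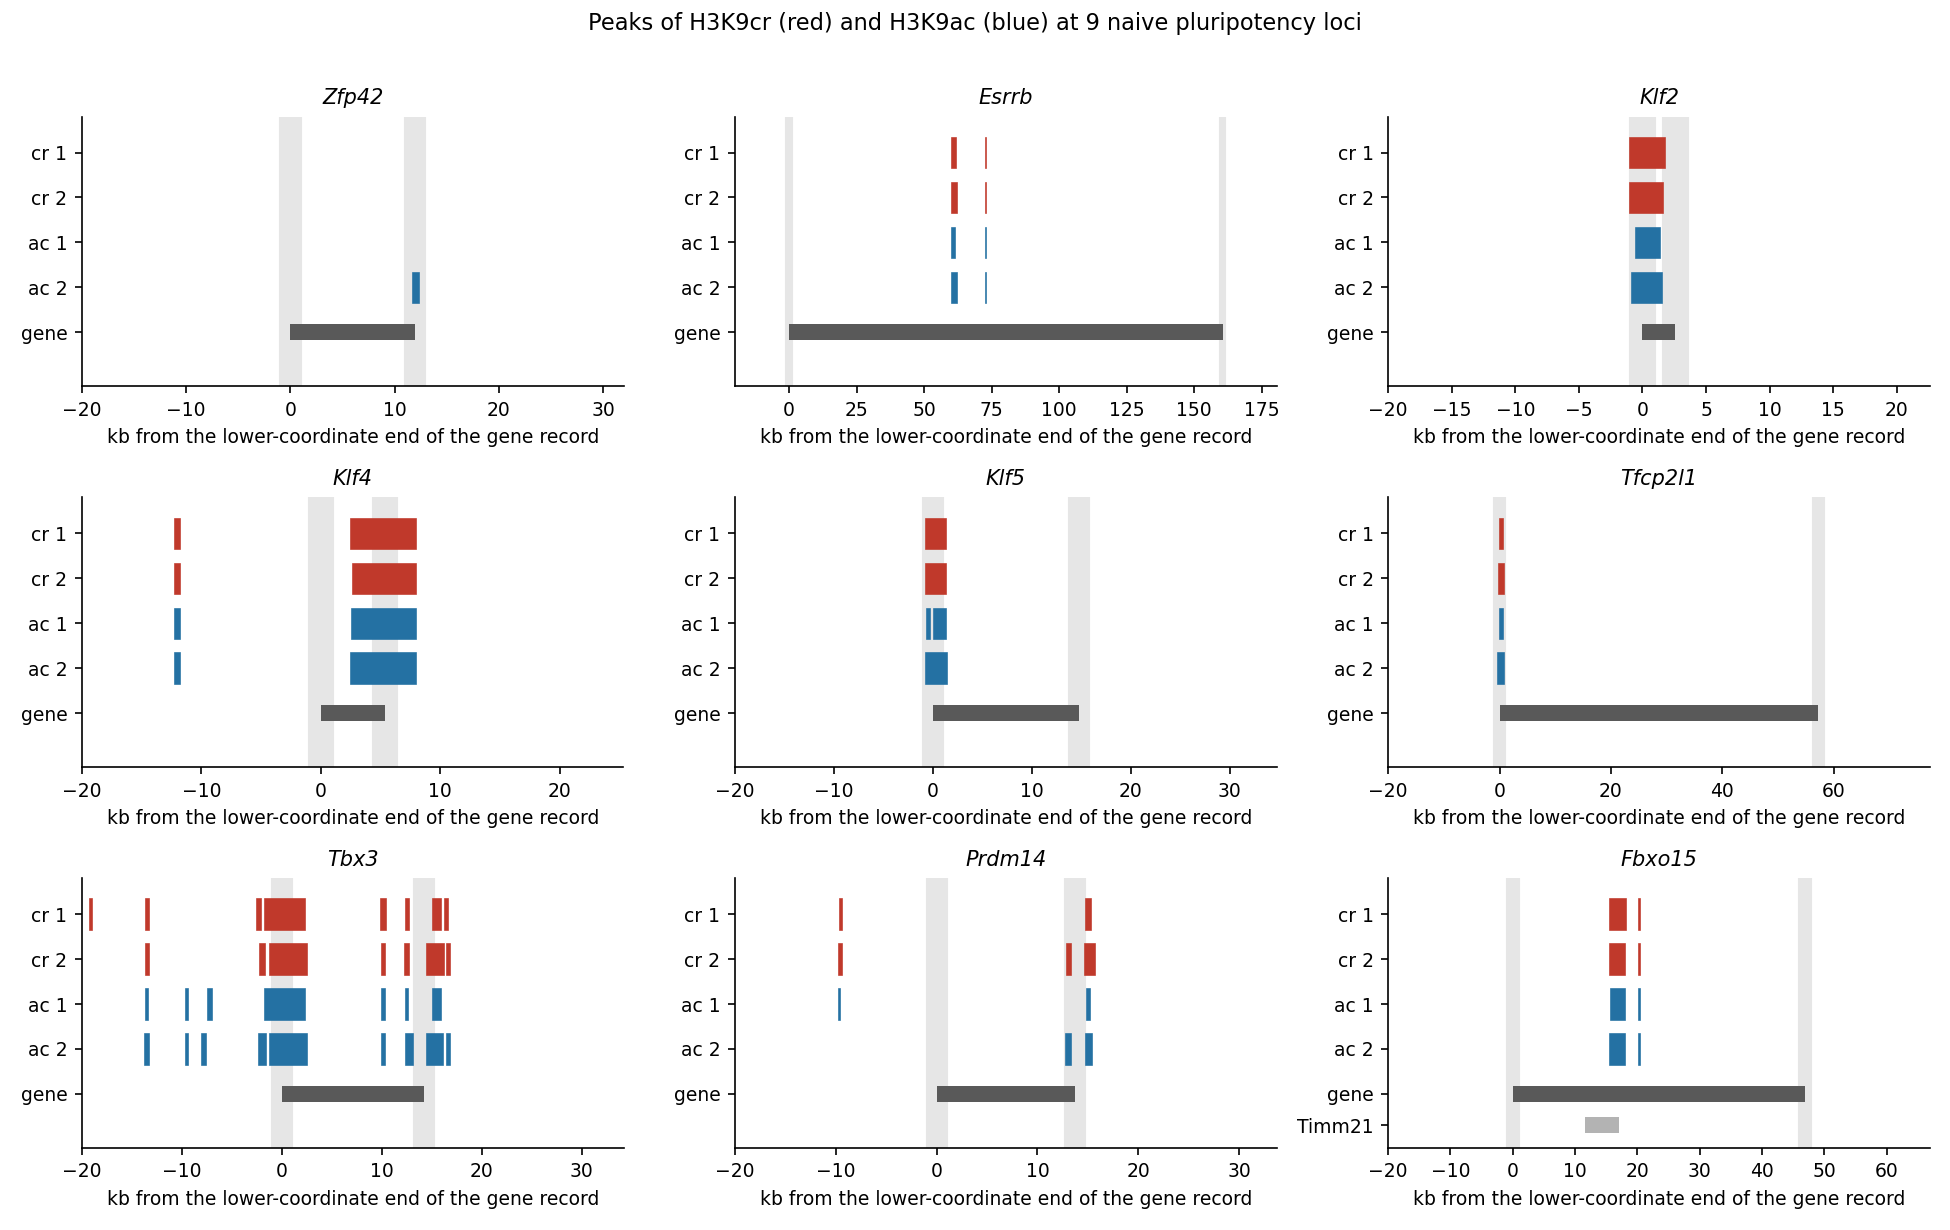
Peaks at each locus. The horizontal axis is the distance in kb from the lower-coordinate end of the gene record, each row is a library (red H3K9cr, blue H3K9ac), the dark bar is the gene and grey bands mark 1 kb around its ends. Esrrb and Fbxo15 have peaks only inside the gene, Tbx3 has 7 to 9 peaks per library, and Zfp42 has 1 peak in H3K9ac replicate 2.

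The transcript starts are shown first, because they differ in CG content, in whether a peak covers them and in how high it is. RefSeq promoters (GRCm38.p6) were matched for 5 members, with 2 starts for Esrrb. Each line gives the 250 bases before the start, 5' to 3' on the gene's strand, with every CG dinucleotide in capitals. The starts with a peak in all 4 libraries were those of Klf4 (chr4:55532476-55532725, minus strand), Klf2 (chr8:72318812-72319061, plus strand) and Tfcp2l1 (chr1:118627695-118627944, plus strand), and the internal start of Esrrb (chr12:86421394-86421643, plus strand). The upstream start of Esrrb (chr12:86360867-86361116, plus strand) had none, and that of Zfp42 (chr8:43307010-43307259, minus strand) had one in 1 library.
Klf4: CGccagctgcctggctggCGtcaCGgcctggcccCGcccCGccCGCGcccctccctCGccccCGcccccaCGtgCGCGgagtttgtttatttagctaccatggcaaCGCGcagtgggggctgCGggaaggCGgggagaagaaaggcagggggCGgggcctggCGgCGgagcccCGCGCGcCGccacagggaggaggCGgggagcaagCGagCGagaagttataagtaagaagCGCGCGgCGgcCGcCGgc
Klf2: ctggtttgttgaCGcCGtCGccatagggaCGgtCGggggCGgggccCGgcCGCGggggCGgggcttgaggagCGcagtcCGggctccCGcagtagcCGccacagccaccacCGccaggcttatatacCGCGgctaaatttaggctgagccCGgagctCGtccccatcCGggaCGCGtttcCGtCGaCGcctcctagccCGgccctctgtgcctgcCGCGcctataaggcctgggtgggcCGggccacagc
Tfcp2l1: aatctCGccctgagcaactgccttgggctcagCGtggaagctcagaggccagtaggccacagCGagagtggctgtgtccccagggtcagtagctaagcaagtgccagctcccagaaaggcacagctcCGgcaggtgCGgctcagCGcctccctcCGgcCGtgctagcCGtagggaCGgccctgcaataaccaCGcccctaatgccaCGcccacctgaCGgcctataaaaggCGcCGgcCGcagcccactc
Esrrb, internal start: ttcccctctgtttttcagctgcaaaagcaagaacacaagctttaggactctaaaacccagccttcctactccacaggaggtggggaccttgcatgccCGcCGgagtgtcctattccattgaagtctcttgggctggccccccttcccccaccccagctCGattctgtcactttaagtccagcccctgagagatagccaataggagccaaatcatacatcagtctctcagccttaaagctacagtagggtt
Esrrb, upstream start: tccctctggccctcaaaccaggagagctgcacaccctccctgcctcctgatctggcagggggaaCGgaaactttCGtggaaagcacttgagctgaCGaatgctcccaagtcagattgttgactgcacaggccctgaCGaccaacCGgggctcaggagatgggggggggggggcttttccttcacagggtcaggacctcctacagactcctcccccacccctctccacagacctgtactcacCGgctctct
Zfp42: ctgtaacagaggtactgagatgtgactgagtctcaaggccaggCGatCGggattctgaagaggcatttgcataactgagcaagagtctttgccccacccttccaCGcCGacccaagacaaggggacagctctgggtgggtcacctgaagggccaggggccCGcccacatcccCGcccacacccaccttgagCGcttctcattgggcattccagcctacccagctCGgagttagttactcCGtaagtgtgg

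CG counts in these windows were 32 at Klf4, 29 at Klf2, 16 at Tfcp2l1, 9 at Zfp42, 6 at the upstream and 3 at the internal start of Esrrb. Over all 21263 RefSeq starts of 17492 protein-coding genes the median was 10, and 61.8% had a peak within 1 kb in all 4 libraries. Occupancy followed CG content across starts, from 6.29% of starts with 0 to 2 CGs to 98.4% of those with 29 or more. The Zfp42 start and the internal Esrrb start were each in the smaller share of starts of like CG content. Of starts within 1 CG of the Zfp42 start, 82.1% had a peak in all 4 libraries, yet Zfp42 did not. Of starts within 1 CG of the internal Esrrb start only 19.4% did, yet it had one. Of those like the upstream Esrrb start 50.4% did. The summit of the internal Esrrb peak was as high as at like starts with a peak, at a mean percentile of 59.6 against a median of 60.01. Klf2, Klf4 and Tfcp2l1 lay below the medians of like starts, with 64.5 against 82.7, 77.7 against 81.4, and 43.5 against 78.4. These are descriptions across starts, which are not replicates.

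**Figure D2:**
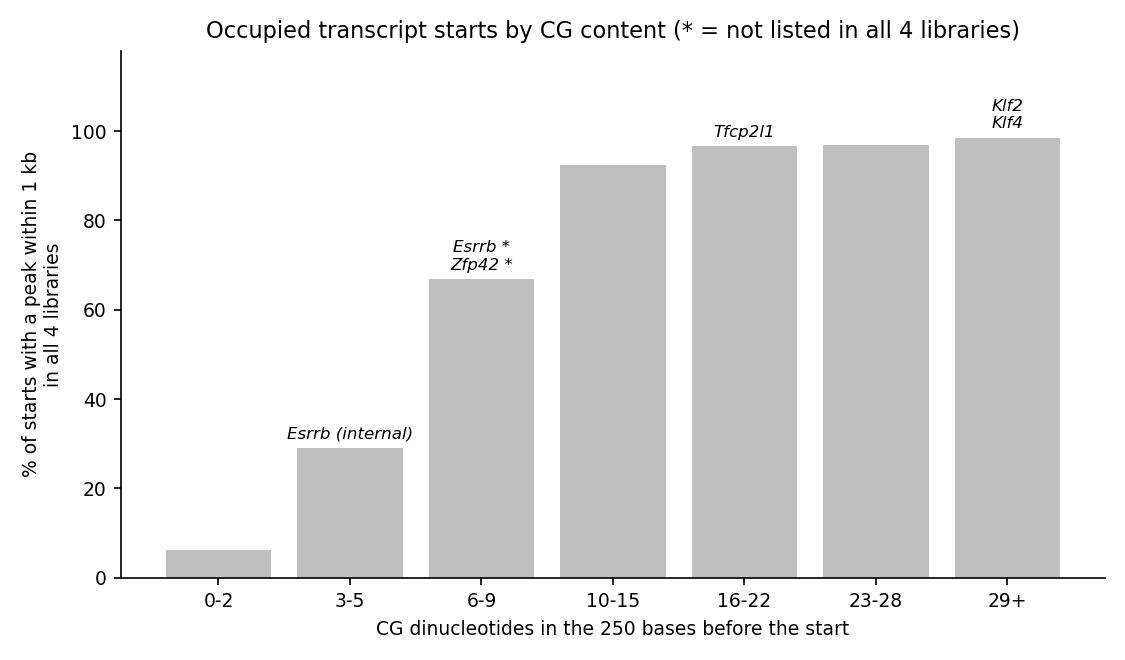
Share of RefSeq transcript starts of protein-coding genes with a peak within 1 kb in all 4 libraries (vertical axis, %), by the number of CG dinucleotides in the 250 bases before the start (horizontal axis). Names mark the bin of each member start, and an asterisk marks those not listed in all 4 libraries: the upstream Esrrb start and Zfp42.

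Short motifs were searched in the same windows on both strands. GGGCGG, the GC box, occurred 4 times at Klf4, overlapping matches included, 2 times each at Klf2 and Zfp42, and in 42.6% of all starts. CACCC, a core of sites bound by Krüppel-like factors, occurred 3 times at Zfp42, 2 times at the upstream Esrrb start, and 1 time each at the internal Esrrb start and Klf2, against at least once in 54.2% of all starts. ATGCAAA, the first 7 bases of the octamer bound by Oct4, was found at Zfp42 alone of these 6 starts and in 3.86% of all starts. TATAAA was found at Tfcp2l1 alone and in 11.6% of all starts. AAGGTCA, part of the sequence bound by Esrrb, was at 0 of the 6 and in 3.59% of all starts. A match describes these letters and does not show binding.

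The 3 Krüppel-like genes encode zinc finger transcription factors that act redundantly to sustain self-renewal of mouse embryonic stem cells, and each carried both marks at one end. Pileup, the coverage height at a peak's summit, is given as its percentile within the library's own list, since its scale differed between libraries. Klf4, also a reprogramming factor, had the highest end peak among the members. It stood at the 78.5th and 79.2nd percentile in the H3K9cr libraries and at the 74.998th and 78.0th in the H3K9ac libraries. The authors' fold enrichment there was 70.8 and 71.2 for H3K9cr, and 53.9 and 79.1 for H3K9ac. All 4 values of each measure were well above the list medians, which were 18.6 to 21.9 for fold enrichment.

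The peak over the Klf4 start was also among the widest of its lists. Its length was 5504 and 5331 bp in the H3K9cr libraries, and 5380 and 5457 bp in the H3K9ac libraries, at the 99.1st to 99.4th percentile of peak length. It reached 2600.5 bp ± 9.19 upstream of the start in the H3K9cr libraries and 2600.5 bp ± 12.02 in the H3K9ac libraries (SD, n = 2 each). Downstream it reached 2816 bp ± 113 and 2817 bp ± 66.5, so the edges of the marks differed by less than those of the replicates. Summits lay upstream of the start (chromosome 4, 55532475), at -594 and -598 bp for H3K9cr and at -1090 and -608 bp for H3K9ac. Placed by its summit, the peak of H3K9ac replicate 1 fell outside the 1 kb window, and Klf4 then no longer counted. The same peak lay within 1 kb of an end of the noncoding gene Gm12506.

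Klf4 had 1 further region in all lists, downstream of the gene at chromosome 4, 55514822 to 55515341, 444 to 503 bp long in single libraries. Its percentile was 39.3 and 39.4 in the H3K9cr libraries, and 20.5 and 44.9 in the H3K9ac libraries. The H3K9ac replicates thus lay on either side of the H3K9cr pair. The nearest peak beyond the 20 kb was 46.5 kb from the gene in every library, at the 33.7th to 48.4th percentile.

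Klf2 had 1 region, over its start. It stood at the 68.6th and 66.4th percentile in the H3K9cr libraries and at the 59.0th and 63.9th in the H3K9ac libraries. The groups did not overlap, nor did they at the Klf4 start and at 3 further member regions, in each with the H3K9cr libraries higher. That made 5 of 15 member regions, against 45.4% of all 22972 regions in either direction and 38.9% with H3K9cr higher. None of these differences passed limma's threshold, as given with the other regions. Its peak was 2715.5 bp ± 77.1 long in the H3K9cr libraries and 2220 bp ± 298 in the H3K9ac libraries (SD, n = 2 each). The upstream edge lay 1025 and 1026 bp from the start for H3K9cr, against 595 and 896 bp for H3K9ac, while the summits lay 326 to 346 bp downstream in all libraries.

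Klf5 carried 1 region at its lower-coordinate end (chromosome 14, 99297868 to 99300143). Its percentile was 52.4 and 49.2 in the H3K9cr libraries, and 52.1 and 51.7 in the H3K9ac libraries, which lay between the H3K9cr values. The first H3K9ac library listed it as 2 peaks of 473 and 1275 bp, while the other libraries had 1 peak of 2089 to 2259 bp. No other peak lay within 20 kb, and the next was 198 kb away.

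Tfcp2l1 encodes a factor of the CP2 family that acts downstream of leukaemia inhibitory factor. Of the strongest end peaks of the 5 genes it had the lowest, at the 44.9th and 50.5th percentile in the H3K9cr libraries and the 38.7th and 40.1st in the H3K9ac libraries. This region was among the 5 without overlap. Only 10.3% of 13462 genes with an end peak in every library had a lower mean percentile, against 16.1% for Klf5, 20.2% for Tbx3, 30.5% for Klf2 and 51.7% for Klf4. With the internal Esrrb region included, the order was Klf4, Klf2, Esrrb, Tbx3, Klf5 and Tfcp2l1. The libraries' ranges overlapped between Klf2 and Esrrb, Esrrb and Tbx3, and Klf5 and Tfcp2l1, but not between Klf4 and Klf2 or Tbx3 and Klf5. The Tfcp2l1 peak was 739 and 1175 bp long in the H3K9cr libraries, and 702 and 1232 bp in the H3K9ac libraries. It was thus shorter in both first replicates, where it began 60 and 61 bp upstream of the start, than in the second replicates, where it began 307 and 440 bp upstream.

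Tbx3, a T-box repressor that supports self-renewal and later limb and heart development, had the most divided locus. It held 8 and 7 peaks in the H3K9cr libraries, and 7 and 9 in the H3K9ac libraries. The strongest, over the lower-coordinate end (region at chromosome 5, 119667940 to 119673099), stood at the 55.5th and 56.4th percentile for H3K9cr, and at the 56.9th and 53.5th for H3K9ac. The H3K9cr values lay between the H3K9ac values. This strongest peak lay within 1 kb of an end of the noncoding gene Tbx3os1. A region at the other end of Tbx3 (38.0th to 41.5th percentile) lay within 1 kb of an end of Tbx3os2.

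The remaining Tbx3 regions were weak. Of 10 regions in all, 5 were listed in every library, 1 in 3 libraries, 1 in both H3K9ac libraries alone and 3 in a single library. The region of H3K9ac alone (chromosome 5, 119660817 to 119661167) stood at the 3.79th and 3.30th percentile, near the bottom of the lists. Tbx3 also gives the case nearest to the 20 kb limit, a peak 18992 bp outside the gene that H3K9cr replicate 1 alone listed at the 5.85th percentile. Just outside the limit, 21592 to 21641 bp away, all 4 libraries had a peak at the 50.01st to 55.3rd percentile.

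Esrrb, an orphan nuclear receptor that binds many of the same sites as Oct4 and Nanog, spans 160.512 kb and had peaks at neither end. Both marks lay over its internal RefSeq start (chromosome 12, 86421644), 59974 bp or more inside the gene. The percentile there was 62.6 and 59.9 in the H3K9cr libraries, and 55.0 and 61.1 in the H3K9ac libraries. Fold enrichment was 28.3 and 30.3 for H3K9cr, and 18.5 and 37.6 for H3K9ac, so the H3K9ac replicates enclosed the H3K9cr pair for fold enrichment, while for the percentile the groups overlapped. The summits lay 94 to 170 bp downstream of that start. The peak reached 496 bp ± 58.0 upstream in the H3K9cr libraries and 494 bp ± 83.4 in the H3K9ac libraries (SD, n = 2 each).

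A smaller Esrrb region followed at chromosome 12, 86433532 to 86433981, with percentiles of 29.7 and 32.6 for H3K9cr, and 28.6 and 38.3 for H3K9ac. It lay at no annotated gene end. No peak came within 59 kb of the upstream start in any library, the nearest being 59974 to 60092 bp away. Which transcript was made cannot be read from these lists.

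Fbxo15 encodes an F-box protein, the substrate-binding part of an SCF ubiquitin ligase, and is a known target of Oct4 and Sox2 that served as an early reprogramming reporter. Its ends had no peak, the nearest lying 15490 to 15592 bp from one end and 26452 to 26505 bp from the other. The locus nevertheless held the highest region of all members, at the 98.2nd and 98.98th percentile for H3K9cr, and the 98.2nd and 98.6th for H3K9ac. This region (chromosome 18, 84950042 to 84952727) lay within 1 kb of an end of Timm21, a gene for a mitochondrial import protein that lies inside the Fbxo15 record. Timm21 was the only other protein-coding gene with an end within 1 kb of a peak of a member. The other Fbxo15 region, at no gene end, stood at the 16.8th percentile in both H3K9cr libraries, and at the 8.28th and 11.96th in the H3K9ac libraries.

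Prdm14 encodes a PR-domain zinc finger protein that restrains FGF signalling and DNA methylation and is needed for germ cells. Its strongest region lay beyond the upper-coordinate end (chromosome 1, 13128040 to 13129109), at the 26.9th and 28.8th percentile in the H3K9cr libraries, and the 20.5th and 30.1st in the H3K9ac libraries. Its peak entered the 1 kb window in H3K9cr replicate 2 alone. It stopped 25 bp short of it in H3K9cr replicate 1, and 67 and 37 bp short in the H3K9ac libraries. With a window of 2.5 kb Prdm14 therefore joined the members with an end peak, which made 6 of 9, against 64.5% of all genes. A region just inside the same end was listed in both second replicates alone, at the 5.80th and 8.50th percentile. A region beyond the other end was missing from H3K9ac replicate 2, and stood at 5.85 and 14.2 for H3K9cr, and 5.97 for H3K9ac replicate 1.

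Zfp42, also called Rex1, is a zinc finger gene whose reporter is used to mark naive cells. Its only peak was in H3K9ac replicate 2, 717 bp over the start at chromosome 8, 43307009. It had a fold enrichment of 4.70, a pileup of 14.6 where the lowest in that list was 9.76, and the 4.95th percentile. H3K9cr replicates 1 and 2 and H3K9ac replicate 1 listed nothing. The next peak in any library was 1497 kb from the gene, the farthest among the 9 loci.

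**Figure D3:**
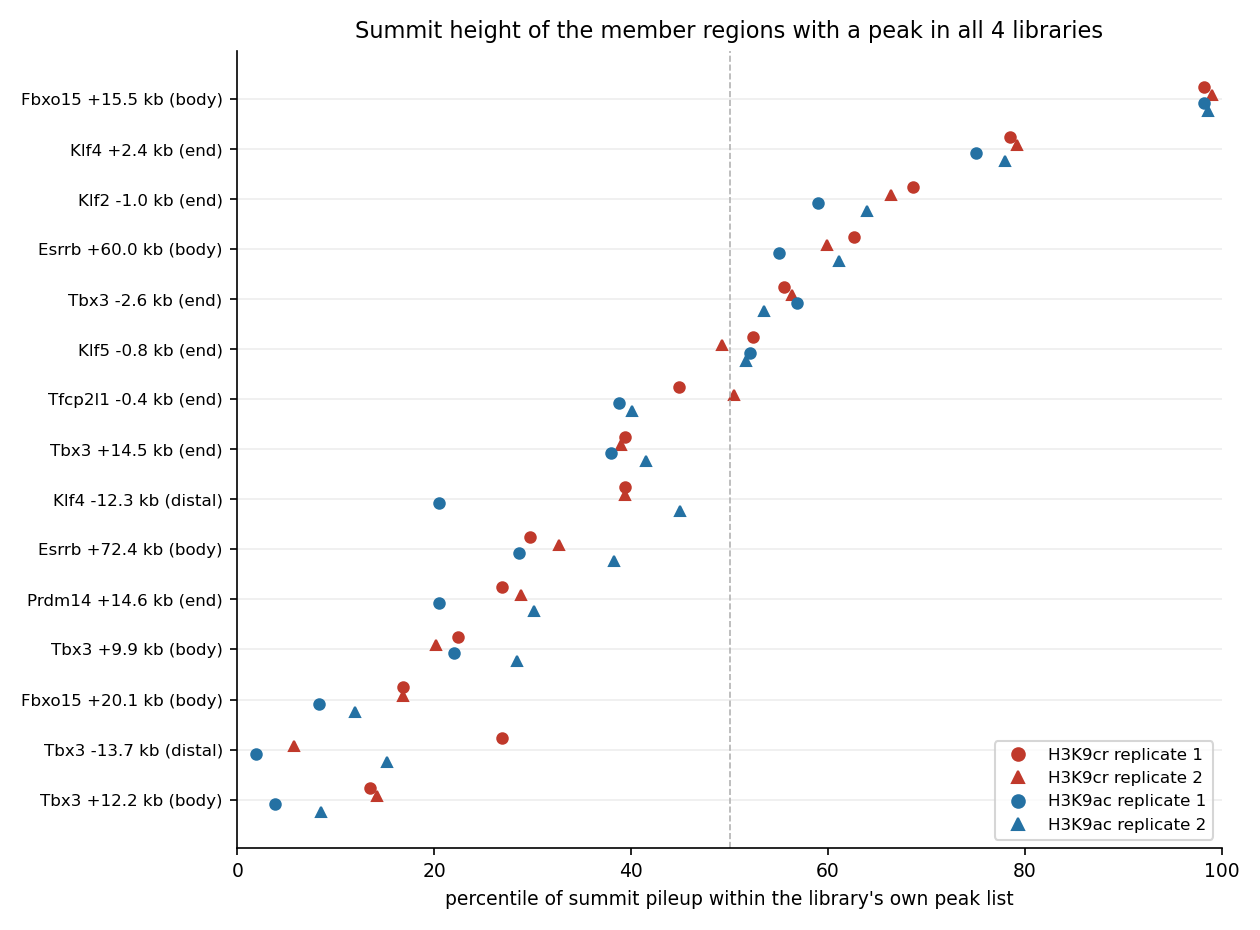
Percentile of summit pileup within each library's own list (horizontal axis) for the 15 member regions with a peak in all 4 libraries, ordered by their mean. Labels give the distance of the region from the lower-coordinate gene end in kb, red symbols are H3K9cr and blue H3K9ac, and the dashed line is the 50th percentile. Red and blue symbols overlap or adjoin in most rows.

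After merging overlapping peaks across libraries, the 9 loci held 23 regions, 15 of them in all 4 libraries (65.2%), 2 in 3, 2 in 2 and 4 in 1 (17.4%). Of all 31127 regions 73.8% were in all 4 libraries and 11.7% in 1. Summit ranks were turned into normal scores and compared by limma over all 22972 regions with a peak in every library. No region passed an adjusted p of 0.05 (0% of 22972), and 2368 (10.3%) had an unadjusted p under 0.05. Of the 15 member regions, 11 had a higher score for H3K9cr and 4 for H3K9ac, against 76.6% of all regions higher for H3K9cr. Limma's adjusted p at the members ranged from 0.417 to 0.945. These ranks were taken within whole lists, which differ in length. Ranked among shared regions only, an alternative chosen after seeing the data, the median difference over all regions was -0.01, against 0.07 in the main ranking. Of regions with an unadjusted limma p under 0.05, 937 of 1746 were then higher for H3K9cr, against 2217 of 2368 in the main ranking.

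In the main ranking, the member regions with an unadjusted p under 0.05 in limma were 3, chosen here after their values were seen. Scores are H3K9cr minus H3K9ac, beside a median of 0.07 over all regions. The difference was 0.21 ± 0.08 (SE) at the Tfcp2l1 start, from means of -0.06 in H3K9cr and -0.27 in H3K9ac libraries (limma adjusted p = 0.482). It was 0.49 ± 0.14 at the Tbx3 body region at chromosome 5, 119682755 to 119683644 (adjusted p = 0.417), which stood at the 13.5th and 14.2nd percentile for H3K9cr, and the 3.79th and 8.50th for H3K9ac. It was 0.32 ± 0.09 at the weaker Fbxo15 region (adjusted p = 0.417). At the Klf2 start it was 0.16 ± 0.08, with an adjusted p of 0.529. Without H3K9ac replicate 2, where 1 library stood for that mark, 706 of 23330 regions passed (3.03%), among them the Tbx3 region (0.69, limma adjusted p = 0.0303) and the distal Klf4 region (0.55, 0.0425). Without H3K9ac replicate 1 the Klf4 difference was -0.14.

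Covered length, the base pairs under peaks within a locus, differed widely between members. Tbx3 had 7537 and 7868 bp in the H3K9cr libraries, against 6709 and 9173 bp in the H3K9ac libraries. Klf4 had 5953 and 5803 bp for H3K9cr, against 5824 and 5960 bp for H3K9ac, the narrowest range over the libraries among the members with a peak in each. Klf2 had 2770 and 2661 bp for H3K9cr, against 2009 and 2431 bp for H3K9ac. In these lengths, not centred on the library median, Klf2 was the 1 member of 8 whose groups did not overlap. Of all loci 45.9% did not overlap in either direction, and 43.6% with H3K9cr higher. The median length over loci was 3722 and 3803 bp in the H3K9cr libraries, and 3354 and 3647 bp in the H3K9ac libraries. Prdm14 had 903 and 1905 bp for H3K9cr, against 640 and 1222 bp for H3K9ac. Tfcp2l1 lay below all but 4.96% of 16259 loci with a peak in every library, and Tbx3 above 87.4% of them.

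**Figure D4:**
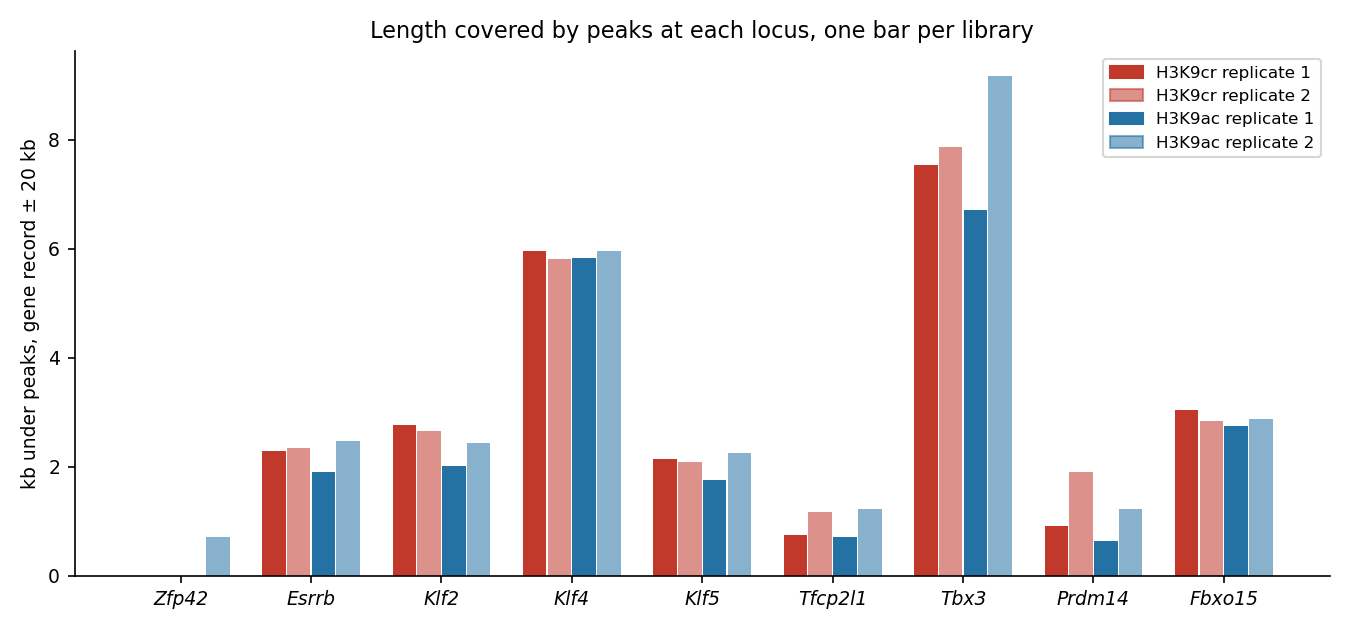
Length under peaks in kb (vertical axis, from 0) within each gene record and 20 kb on both sides, with 1 bar per library, H3K9cr in red and H3K9ac in blue. At Esrrb, Klf5, Tfcp2l1 and Tbx3 the highest bar is H3K9ac replicate 2 and the lowest H3K9ac replicate 1.

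Limma on covered length, centred on each library's median, called 0 of 16259 loci (0%), with 1264 (7.77%) at an unadjusted p under 0.05, none of them a member. Adjusted p at the 8 members with a peak in every library ranged from 0.745 to 0.840. The centred difference, H3K9cr minus H3K9ac, was 233.5 bp ± 184 (SE) at Klf2, -276 bp ± 190 at Klf4 and -500.5 bp ± 687 at Tbx3. It was positive at 2 members and negative at 6. Its median over the 8 was -146 bp, against -47 bp over all loci. Without centring these medians were 116 and 215 bp, so their signs depend on it. Zfp42, listed in 1 library, did not enter this fit. Over the 9 loci together, peaks covered 26.0 kb ± 0.936 in the H3K9cr libraries and 25.3 kb ± 4.28 in the H3K9ac libraries (SD, n = 2 each). The exact two-sided permutation test of these totals gave p = 1, where 2 libraries against 2 cannot go below 0.333. The H3K9ac replicates, at 22.3 and 28.3 kb, enclosed the H3K9cr totals of 25.4 and 26.7 kb.

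Peak outlines were compared by the Jaccard index, shared over joint base pairs. Its mean over pairs of libraries of different marks exceeded that over replicates of a mark at 7 of 8 members, all but Klf2, with medians of 0.824 and 0.823. The mean over different marks was lower at 12.5% of these members and at 46.4% of 16259 loci, whose medians were 0.875 and 0.880. Pairs of different marks include same-numbered libraries, while replicates of a mark always differ in number. These means therefore cannot tell whether marks are more alike than replicates. At Tfcp2l1 the index was 0.947 between the marks' first replicates and 0.840 between their second, against 0.629 between the H3K9cr and 0.570 between the H3K9ac replicates. Between differently numbered libraries of different marks it was 0.600 and 0.597 there. At Klf4 all 6 pairs lay between 0.967 and 0.987. At Klf2 the H3K9cr replicates were the most alike, at 0.960, and H3K9ac replicate 1 lay apart from them, at 0.725 and 0.755.

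Other genes of the network were counted by the same end rule. Of 29 other pluripotency genes 21 (72.4%) had an end peak in all 4 libraries, of 20 formative and primed genes 17 (85.0%) and of 19 paralogs of the members 18 (94.7%), against 61.5% of all genes. The 29 include the 7 markers of undifferentiated cells counted above. Those without one were Dppa2, Dppa5a, Tcl1, Nr5a2, Lifr, Tfap2c, Dnmt3l and Pecam1, then Dnmt3a, Lefty2 and Cer1, and Tbx5. Dppa2, Dppa5a and Tcl1 (3 of 29) and Cer1 (1 of 20) had no peak in their loci in any library, against 23.3% of all genes. Nr5a2, a nuclear receptor that can replace Oct4 in reprogramming, Lifr, the receptor for leukaemia inhibitory factor, and Tbx5 had body peaks in all 4 libraries with none at an end, the layout of Esrrb. Median percentiles of those with an end peak were 73.4 to 78.7 for the pluripotency and 68.4 to 70.8 for the formative list over the 4 libraries, against 75.2 to 77.4 for all genes.

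By Euclidean distance over the 4 end percentiles, the nearest of 13461 other genes was Usp6nl for Klf4, Gm20939 for Klf2, Nell2 for Klf5, Fut1 for Tfcp2l1 and Id4 for Tbx3. The distances were 0.599 to 1.75 percentile points. Such likeness over 4 libraries is common, as 25 genes lay within 5 points of Tfcp2l1 and 707 within 5 points of Klf4.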

How the data were processed

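Peak lists of 2 H3K9cr and 2 H3K9ac libraries from P19 cells were used. Per the submitters' processing notes, Bowtie2 2.4.1, MACS2 2.2.7.1 and the build GRCm38 were used, while the sources used here state no options, depth or pairing with inputs. The columns, per the file headers, are positions, the pileup signal (coverage at the summit), fold enrichment as a ratio over local background, and -log10 p-values and q-values, all deposited by the authors per library. Coordinates count from 1.

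From these, peaks within 20 kb of each RefSeq gene record were classed by at least 1 bp of overlap as end (within 1 kb of either end), body or distal. Percentiles are ranks within a list. Strand was known only for genes in the promoter table, so either end was used. Covered length per locus and normal scores of pileup ranks per merged region were fitted by mark with limma 3.58.1 in R 4.3.3, with Benjamini-Hochberg adjustment over all loci or regions at 0.05. Single values were compared by exact permutation of libraries. Other steps used Python 3.11.15, numpy 2.4.6, pandas 2.3.3 and scipy 1.17.1, and the fits and the peak classes were tested on simulated data. Replicate numbers are shared between marks, but nothing in the labels says what a number stands for, and the fits have no block.

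The members and lists were chosen with earlier results of these data known. All 9 members are described, other genes only as neighbours, nearest in percentile, or members of the counted lists. Alternatives were a -log10 q of at least 5, equal numbers of peaks, other windows, flanks and overlaps, no centring, other ranks, the replicate block and leaving out each library.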

Additional observations from a re-analysis of the deposited data

How the results depend on the processing

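Counts of members by layout kept within 1.5 times of the main count under every alternative but 3. An end peak was left at 3 members when at least 50% of the peak had to lie in the window, which the long Klf4 and Tbx3 peaks could not meet. A distal peak was found at 5 members with a flank of 100 kb. Leaving out single libraries gave 0 to 1 members with one mark alone, Zfp42 without H3K9ac replicate 1. The number of loci called for covered length was 0 under all alternatives but those leaving out a library (0 to 473, with 468 and 473 without H3K9cr replicate 1 and 2, none of them a member). The number of regions called by rank was 0 likewise, except for 0 to 706 with a library left out. There 1 library stands for a mark and is assumed to vary like the others. With the replicate block, 0 loci and 0 regions were called, and no member's call changed. With it, 1640 loci and 2461 regions had an unadjusted limma p under 0.05, against 1264 and 2368 without. Same-numbered libraries correlated in their deviations by 0.13 for covered length over all loci and 0.02 for ranks over all regions. At Tfcp2l1, Tbx3 and Prdm14, outlines of different marks were more alike between same-numbered than between differently numbered libraries. At the other members this order did not hold throughout. The total over the 9 loci differed by -2317 to 3735 bp with a library left out, and was negative without H3K9ac replicate 1.

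Signs of uncalled differences changed as follows, the cause not tested. Without centring, which moves the median to 116 bp over the members and 215 bp over all loci by construction, covered length was 125 bp higher for H3K9cr at Esrrb, 107.5 bp at Klf5 and 129 bp at Fbxo15. With the stricter threshold it was 173 bp higher at Tbx3. With a library left out it ran from -1586 to 586.5 bp at Tbx3, -246.5 to 673.5 bp at Prdm14 and -270.5 to 9.5 bp at Fbxo15. Ranked by fold enrichment, the score difference was 0.10 at the Tbx3 body region at 119680401, -0.17 at the Prdm14 end and -0.18 at the Timm21 end in Fbxo15. Ranked among shared regions only, an alternative chosen after seeing the data that moves the median over all regions to -0.01, it was -0.064 at the lower Tbx3 end and -0.12 at the Prdm14 end. With a library left out, it ran from -0.19 to 0.073 at the weaker Esrrb region, -0.14 to 0.55 at the distal Klf4 region, -0.068 to 0.012 at Klf5, -0.064 to 0.98 at the distal Tbx3 region, -0.024 to 0.061 and -0.060 to 0.031 at the Tbx3 ends, -0.066 to 0.24 at Prdm14 and -0.037 to 0.18 at Timm21. Depth is unknown, so its part in the spread between libraries was not tested.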
